A study of Homo sapiens with 9 samples.

Results

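The interferon-stimulated genes described here are 38 genes of the innate antiviral response, found in the deposited counts as the rows whose NCBI gene identifier maps to a fixed set of 38 symbols. All 38 were present among the 28395 genes listed, and all 38 passed the filter of a mean of at least 50 counts per library, which left 12695 genes for testing. They comprise transcription factors of the pathway (STAT2, IRF1, IRF7, IRF9), sensors of viral RNA (IFIH1, DHX58, DDX60), the OAS, IFIT, IFITM and MX families, the ISG15 system, and effectors such as RSAD2, IFI27 and XAF1.

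Interferons are secreted proteins that cells release when their sensors meet viral nucleic acid. Type I interferons bind the IFNAR1 and IFNAR2 receptor chains, and the attached kinases JAK1 and TYK2 activate the factor ISGF3, which contains STAT2 and IRF9 and binds the interferon-stimulated response element (ISRE) in the promoters of target genes. Interferon gamma acts through JAK1 and JAK2 on a different motif, the gamma-activated site (GAS). Many tumor lines keep part of this program switched on in culture without added interferon.

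RNA was sequenced from 3 human kidney cell lines with 3 libraries each, 9 in all, and no drug, virus or interferon treatment is named for any of them. HK2 is an immortalized line of normal proximal tubule epithelium, 786-O comes from a primary clear cell renal cell carcinoma (ccRCC), and 786-M1A was derived from 786-O through lung metastases after injection into mice. All were kept in Plasmax, a medium whose nutrients follow those of human serum. Each group is therefore a single line, 786-M1A descends from 786-O, and differences in genotype, passage history and disease cannot be told apart between lines. The libraries were replicate dishes of a line, so the p-values measure the spread between dishes only.

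The libraries held between 30212291 and 45362428 counts, and log2 levels of the same line correlated across genes at r between 0.997 and 0.998. Of 8 proximal tubule markers, 2 in HK2 and 3 in either cancer line reached a mean of 1 CPM (counts per 1e6 reads of a library, its size scaled by the TMM method), and LRP2, SLC22A6 and SLC22A8 had 0 counts in every library. Keratin genes KRT8, KRT18 and KRT19 were above 1 CPM in all 3 lines. The summed level of 6 leukocyte markers was between 26.6 and 53.7 CPM, but CD68 was the only one above 1 CPM, and PTPRC and CD3E were at 0 in every library. The summed level of 3 endothelial markers did not exceed 0.124 CPM. Of 4 fibroblast markers, COL1A1 and PDGFRB were above 1 CPM in all lines, with a summed level of 54.3 to 63.3 CPM in HK2, 264 to 333 in 786-O and 297 to 301 in 786-M1A, and the part of this difference in the results was not tested. As these are bulk measurements, fewer cells that express a gene and less RNA per cell cannot be told apart.

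The promoter windows below show matches to the ISRE by sequence alone. They are stretches of the RefSeq promoter windows (GRCh38.p14, from 250 bases before to 50 after the start of each gene) of 5 genes whose values in every library follow, namely 3 that were higher in the cancer lines (IFI6, IFI27, EPSTI1) and 2 that were lower (IFI44L, HERC5). Capitals mark each match to the core of the ISRE, GAAANNGAAA, on either strand, so that a match on the other strand reads TTTCNNTTTC. Each sequence is given 5′ to 3′ on the strand of its gene. The IFI6 stretch is chr1:27672271-27672353 on the minus strand, IFI27 is chr14:94110609-94110668 on the plus strand, EPSTI1 is chr13:42992272-42992317 on the minus strand, IFI44L is chr1:78620282-78620386 on the plus strand, and HERC5 is chr4:88456989-88457059 on the plus strand.
IFI6: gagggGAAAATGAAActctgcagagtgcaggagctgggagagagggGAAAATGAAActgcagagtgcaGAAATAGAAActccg
IFI27: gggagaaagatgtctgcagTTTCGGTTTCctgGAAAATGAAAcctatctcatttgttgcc
EPSTI1: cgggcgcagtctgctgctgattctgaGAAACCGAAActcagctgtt
IFI44L: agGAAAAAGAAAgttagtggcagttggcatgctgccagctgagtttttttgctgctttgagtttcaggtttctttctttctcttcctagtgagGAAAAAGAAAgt
HERC5: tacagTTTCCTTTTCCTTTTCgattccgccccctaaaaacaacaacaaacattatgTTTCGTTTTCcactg
IFI6 holds 3 matches, IFI27 and IFI44L hold 2 each, HERC5 holds 3, of which 2 overlap, and EPSTI1 holds 1. Genes on both sides of the comparison with HK2 thus carried the same letters, and a match is a description of the sequence, not evidence that a factor binds there.

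RefSeq windows were found for 30 of the 38 genes; IFIT2, IFITM2, MX2, OAS2, OASL, IRF7, DHX58 and USP18 had none in the table used. The ISRE core occurred in 20 of the 30 windows (66.7%), against 3.65% of all 27305 windows and 2.72% of the 10191 windows of genes tested. In all there were 39 matches, with 5 genes holding 1, 11 holding 2 and 4 holding 3. In 17 genes at least 1 match lay wholly before the start site, and in DTX3L, MX1 and TRIM21 the matches reached or followed it. The GAS motif, TTCNNNGAA, which reads the same on both strands, occurred in 9 of the 30 windows (30%), against 7.88% of all windows and 6.42% of those of genes tested. Its carriers were DDX60, IRF1, IFITM1, OAS1, EPSTI1, IRF9, IFI27, IFI35 and BST2, and in DDX60, EPSTI1, IFITM1, IFI27 and BST2 it stood in a window that also held the ISRE core.

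**Figure D1:**
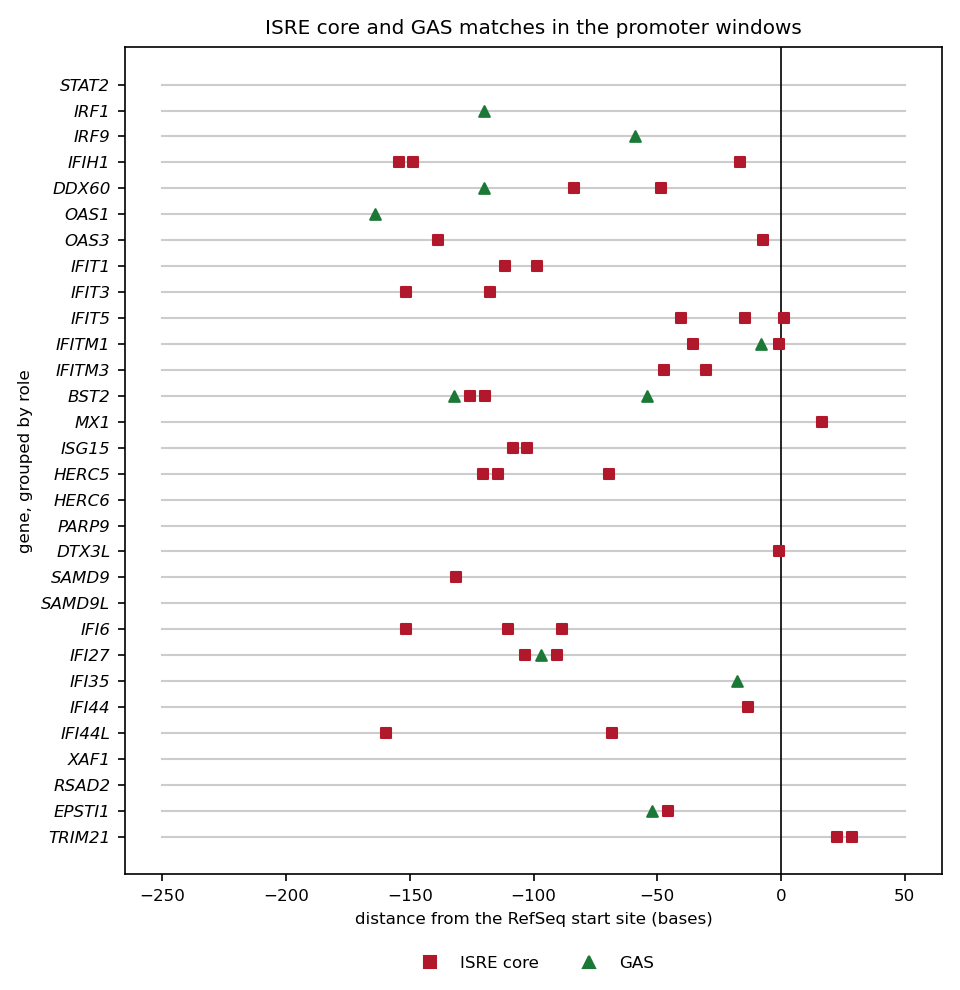
Matches to the ISRE core (red squares) and to GAS (green triangles) in the promoter windows of the 30 genes that had one, by distance from the RefSeq start site in bases. ISRE core matches were found in 20 genes and lay mostly before the start site, and STAT2, HERC6, PARP9, SAMD9L, XAF1 and RSAD2 held neither motif.

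Most of the genes were higher in the cancer lines than in HK2, and most were lower in the metastatic 786-M1A than in its parent 786-O. The mean log2 CPM over the 38 genes was 2.73, 2.77 and 2.69 in the HK2 libraries, 4.52, 4.58 and 4.56 in the 786-O libraries, and 4.02, 3.96 and 3.94 in the 786-M1A libraries. The 3 lines did not overlap in this mean. It includes 7 genes with a mean under 50 counts in HK2, which passed the filter only through the cancer lines and lower the HK2 mean. Such genes weigh less on the median log2 CPM. The median was 3.54, 3.60 and 3.55 in the HK2 libraries, 4.58, 4.72 and 4.70 in 786-O, and 4.28, 4.20 and 4.26 in 786-M1A. By line means, 24 of the 38 genes were ordered 786-O, then 786-M1A, then HK2, and another 6 (IFITM2, IFITM3, DDX60, BST2, EPSTI1 and TRIM21) were ordered 786-M1A, 786-O, HK2. The other orders held IFI35, IFIT2, MX1 and HERC6 (786-O, HK2, 786-M1A), IFI44L and HERC5 (HK2, 786-O, 786-M1A), IRF7 (HK2, 786-M1A, 786-O) and IRF9 (786-M1A, HK2, 786-O). Not all of these steps exceeded the spread between libraries, as given below gene by gene. The median coefficient of variation between libraries of a line was 7.25% for these genes in HK2, 4.79% for 786-O and 6.16% for 786-M1A, against 4.25%, 3.85% and 4.68% over all genes tested.

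**Figure D2:**
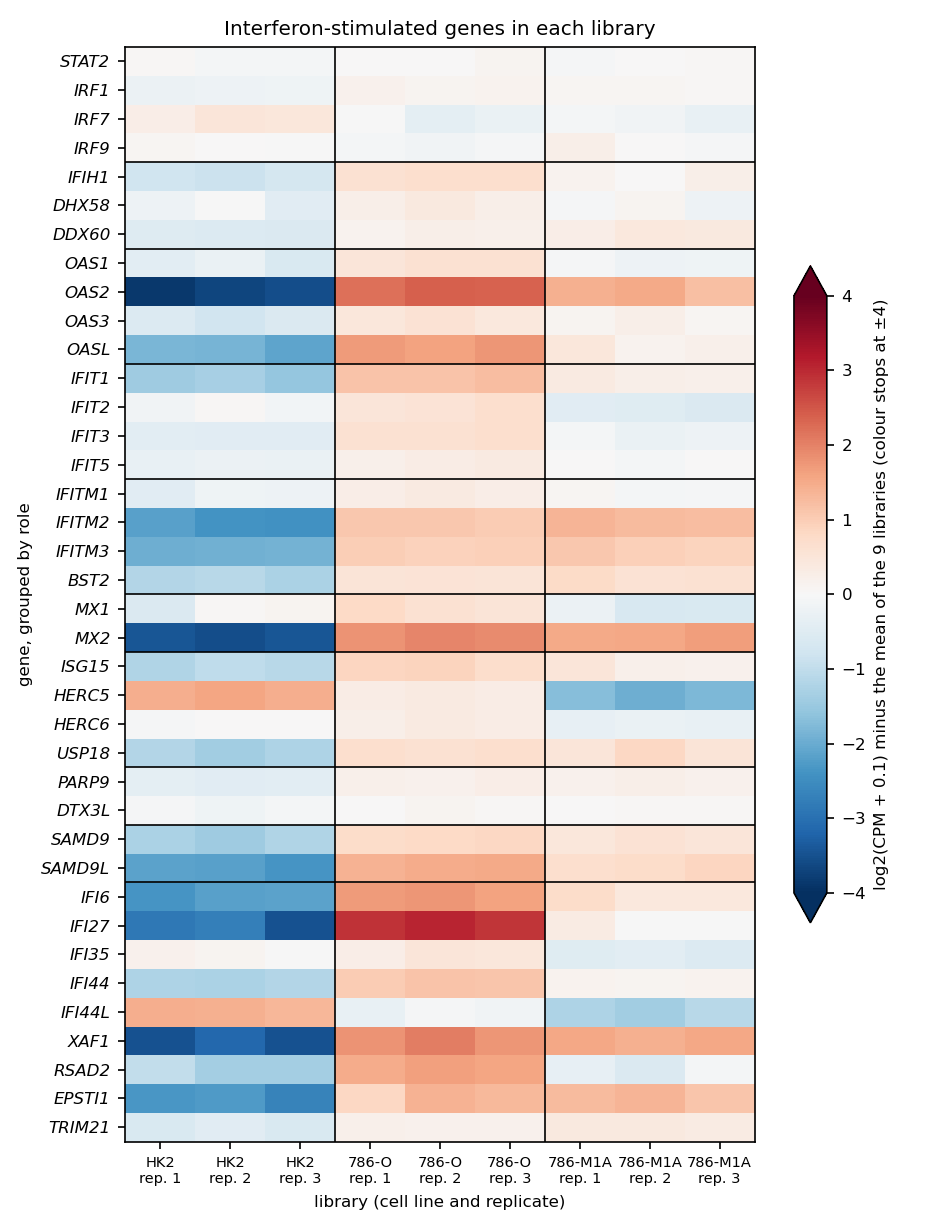
Level of each of the 38 genes (rows, grouped by role) in each of the 9 libraries (columns), as log2(CPM + 0.1) minus the mean of the gene over all libraries. OAS2, MX2, XAF1 and IFI27 have their lowest values in the HK2 libraries, whereas HERC5 and IFI44L have their highest there.

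Between 786-O and HK2, edgeR's quasi-likelihood test with Benjamini-Hochberg adjustment called 33 of the 38 genes higher in 786-O and 3 lower (IFI44L, IRF7 and HERC5), and STAT2 and IRF9 did not pass. Over all genes tested, 41.6% were called higher and 42.6% lower. At least a 2-fold difference was called for 21 of the genes upward and 2 downward (IFI44L and HERC5), against 9.18% and 13.1% of all genes. The median log2 fold change of the 38 was 1.10, with a range of -1.58 to 8.41, and that of all genes was -0.01. The libraries of 786-O and HK2 did not overlap in 37 of the 38 genes, all but STAT2, whereas this was so for 85.5% of all genes.

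Between 786-M1A and HK2, 28 of the genes were called higher and 7 lower (IFI35, IFI44L, IFIT2, MX1, IRF7, HERC5 and HERC6), while STAT2, IRF9 and DHX58 did not pass. Over all genes, 41.6% were higher and 43.3% lower. A difference of at least 2-fold was called in 17 genes upward and 2 downward (IFI44L and HERC5), against 10.4% and 15.0% of all genes. The median log2 fold change was 0.91, with a range of -3.35 to 8.03, and that of all genes was -0.02. Libraries did not overlap in 34 of the 38 genes, against 85.0% of all genes. This comparison and the previous one share the HK2 libraries. In HK2, 7 genes (IFI27, MX2, OAS2, OASL, XAF1, RSAD2 and EPSTI1) had a mean under 50 counts, so that they passed the filter only through the cancer lines and had to be higher there. For RSAD2 this applies to 786-O alone, since its mean in 786-M1A was also under 50 counts. When every library had to hold 10 counts or more, which kept 33 of the 38 genes, 28 were higher and 3 lower in 786-O than in HK2, and 23 were higher and 7 lower in 786-M1A, with 15 and 12 genes higher by at least 2-fold. The genes kept include OASL and RSAD2, for which the limit still held.

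In the comparison of 786-M1A with its parent, 25 of the 38 genes were called lower in 786-M1A and 4 higher (IFITM2, DDX60, BST2 and TRIM21), and the other 9 did not pass. Over all genes, 28.0% were called lower and 27.9% higher. At least a 2-fold difference was called for 8 genes downward (IFI6, IFI27, IFI44L, IFIT2, MX1, OASL, HERC5 and RSAD2), against 4.55% of all genes. None of the genes was higher in 786-M1A by at least 2-fold, against 2.03% of all genes, and this count was also 0 at an unadjusted p under 0.05 and with DESeq2 and limma-voom. RSAD2 had a mean under 50 counts in 786-M1A as in HK2, so that it passed the filter only through 786-O and had to be lower in 786-M1A. With 10 or more counts asked of every library, 21 of the 33 genes left were lower, 7 of them by at least 2-fold, and 4 were higher. The genes left still include RSAD2, which had 27 to 40 counts in the 786-M1A libraries. The largest log2 fold change upward was 0.23, for IFITM2. The median log2 fold change was -0.36, with a range of -2.87 to 0.23, and that of all genes was 0.00. Libraries of the 2 lines did not overlap in 30 of the genes, against 61.6% of all genes.

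**Figure D3:**
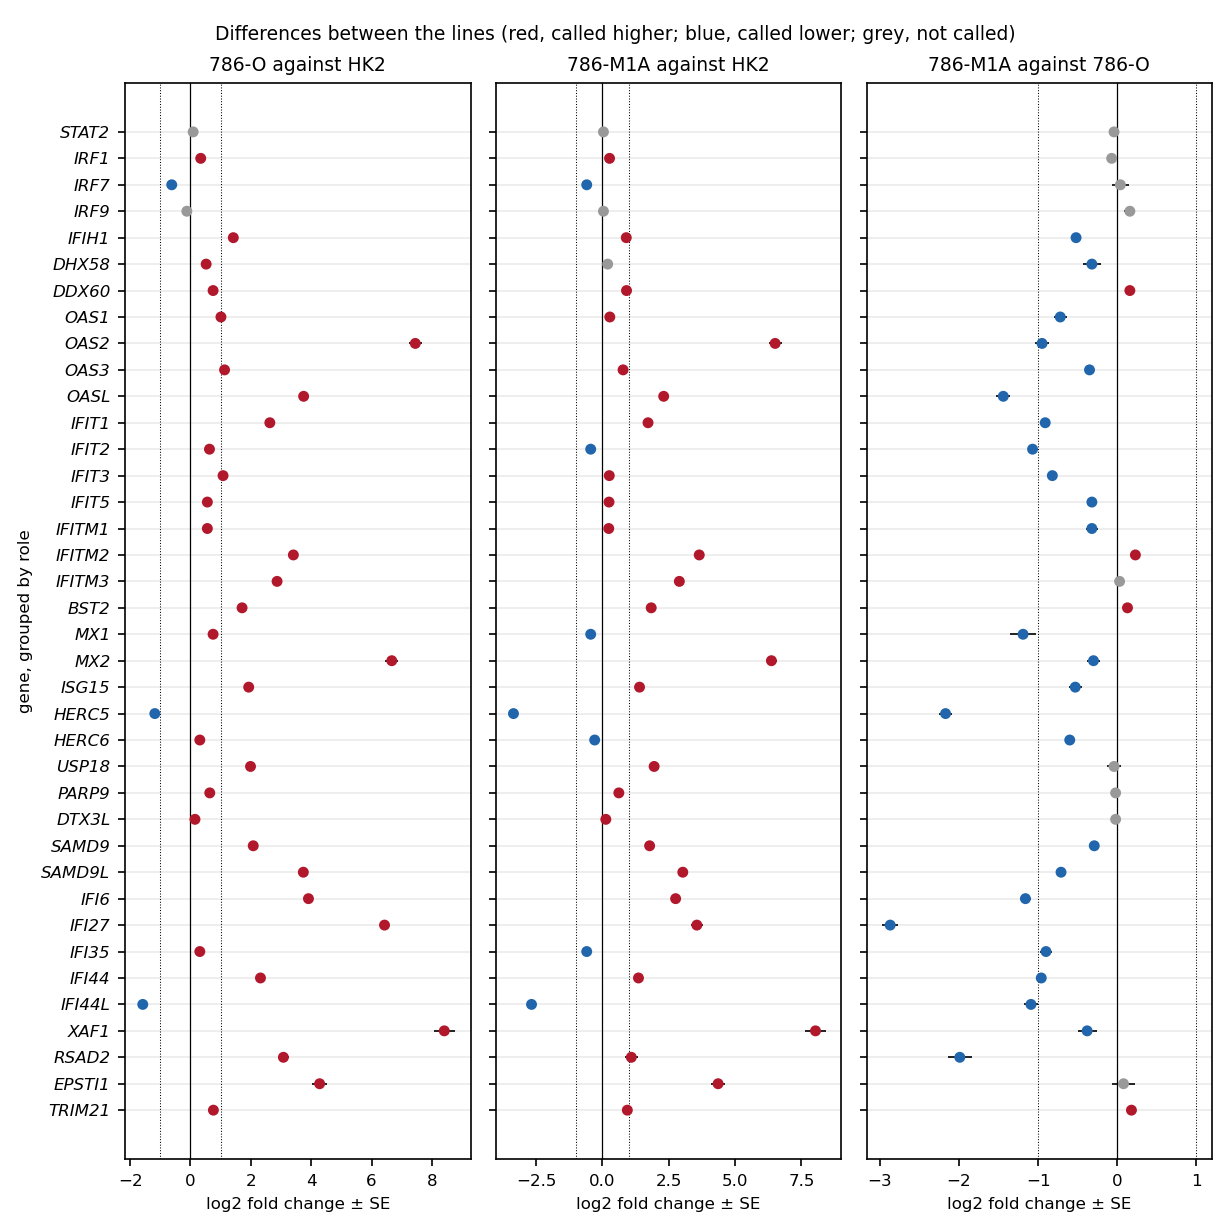
Log2 fold change with its standard error for each of the 38 genes in the 3 comparisons, from the edgeR fit of all 9 libraries (red, called higher; blue, called lower; grey, not called; dotted lines at a 2-fold difference). The 3 panels have different horizontal scales, from -2.87 to 0.23 in the comparison of 786-M1A with 786-O and up to 8.41 in that of 786-O with HK2.

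The interferons themselves were close to absent from the libraries. Of 21 interferon genes (type I, II and III), none passed the filter and 11 had 0 counts in every library. The highest count in any library was 7, for IFNE, an interferon of epithelia, which had between 1 and 7 counts in each of the 9 libraries. IFNL2 and IFNL3, near-identical type III interferon genes whose reads are hard to assign, had 2 to 4 and 3 to 6 counts in the HK2 libraries and 0 in all 6 cancer libraries, where 3 counts correspond to between 0.0675 and 0.0805 CPM. None of these genes was tested, and counts this low limit any comparison of interferon mRNA between the lines.

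The receptors and kinases were expressed in all 3 lines. IFNAR1 had a mean of 69.8 ± 0.103 CPM in HK2 against 72.1 ± 1.87 in 786-O and 65.8 ± 1.43 in 786-M1A (SD, n = 3 here and for all line means), and IFNAR2 had 30 ± 0.067, 27.9 ± 1.06 and 33.0 ± 0.337. IFNAR1 was lower in 786-M1A than in 786-O by a log2 fold change of -0.13 ± 0.04 (SE, adjusted p = 0.00757) and did not pass in either comparison with HK2, whereas for IFNAR2 the same comparison gave a higher value in 786-M1A, by 0.24 ± 0.05 (adjusted p = 1.64e-04). IFNLR1, the specific chain of the type III receptor, fell in steps from 11.5 ± 0.962 CPM in HK2 to 6.89 ± 0.164 in 786-O and 3.08 ± 0.474 in 786-M1A, and its partner IL10RB had 24.0 ± 0.336, 44.1 ± 0.197 and 48.6 ± 0.986. The interferon gamma receptor chains were lower in the cancer lines, with 40.7 ± 2.73, 23.3 ± 0.999 and 25.2 ± 1.28 CPM for IFNGR1 and 50.3 ± 0.701, 35 ± 0.624 and 32.3 ± 1.22 for IFNGR2.

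Among the kinases, JAK1 was lower in the cancer lines (531 ± 25.4 CPM in HK2 against 356 ± 8.10 in 786-O and 406 ± 20.0 in 786-M1A), while TYK2 was higher (48.4 ± 3.29, 104 ± 3.03 and 102 ± 5.41) and so was JAK2 (6.22 ± 0.613, 20.8 ± 1.05 and 16.7 ± 1.13). Of these 9 receptor and kinase genes, 3 passed upward and 5 downward in 786-O against HK2, 4 and 4 in 786-M1A against HK2, and 3 and 4 in 786-M1A against 786-O. Of all genes tested, 41.6% passed upward and 42.6% downward in the first comparison, 41.6% and 43.3% in the second, and 27.9% and 28.0% in the third.

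**Figure D4:**
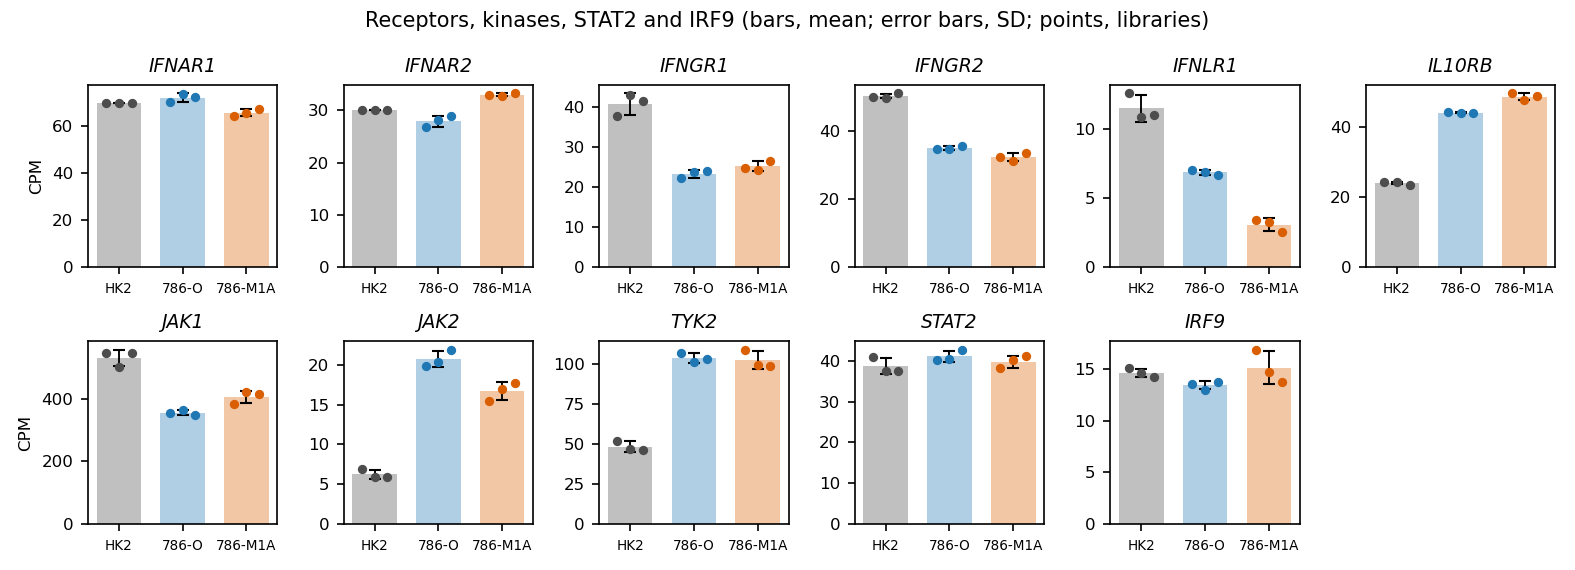
CPM of the receptor chains, the JAK kinases and the ISGF3 subunits STAT2 and IRF9 in each library (points), with the line mean (bars, from 0) and SD (error bars), each panel on its own axis. IFNLR1 goes down from 11.5 CPM in HK2 to 3.08 in 786-M1A, TYK2 and JAK2 are higher in both cancer lines, and STAT2 overlaps between all lines.

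The ISGF3 subunits STAT2 and IRF9 did not pass the test in any comparison. STAT2 had 40.9, 37.6 and 37.6 CPM in the HK2 libraries, 40.1, 40.4 and 42.7 in 786-O, and 38.2, 40.1 and 41.1 in 786-M1A, and all 3 lines overlapped. IRF9, the DNA-binding subunit, had 15.1, 14.6 and 14.3 CPM in HK2, 13.6, 13.0 and 13.8 in 786-O, and 16.9, 14.7 and 13.8 in 786-M1A. The first 786-M1A library was the highest, 786-M1A overlapped with both other lines, and 786-O lay below HK2 without overlap. The IRF9 log2 fold change of 786-M1A against 786-O was 0.16 ± 0.07 (adjusted p = 0.0563), and over 13 alternative settings the adjusted p lay between 0.0143 and 0.379, under the threshold in 4 of them.

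IRF1 and IRF7 are factors that are themselves induced and that drive interferon and target genes in turn. IRF1 had 39.2, 40.0 and 40.2 CPM in HK2, 51.1, 49.4 and 50.3 in 786-O, and 48.3, 48.7 and 46.9 in 786-M1A. The cancer libraries were all above those of HK2, and the log2 fold change from HK2 was 0.34 ± 0.04 for 786-O (adjusted p = 1.88e-07) and 0.27 ± 0.04 for 786-M1A (adjusted p = 5.20e-06). IRF7, the factor for the interferon alpha genes, went the other way, with 5.28, 6.21 and 6.01 CPM in HK2, 4.33, 3.37 and 3.66 in 786-O, and 4.21, 3.99 and 3.54 in 786-M1A. All 3 HK2 libraries were above all 6 cancer libraries, and the log2 fold change was -0.62 ± 0.11 (adjusted p = 1.24e-05) in 786-O and -0.59 ± 0.11 (adjusted p = 3.16e-05) in 786-M1A. Neither gene passed in 786-M1A against 786-O.

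The 3 RNA sensors were all higher in 786-O than in HK2. IFIH1, the gene of MDA5, which detects long double-stranded RNA, had means of 10.4 ± 0.613 CPM in HK2 against 27.9 ± 0.452 in 786-O and 19.4 ± 1.45 in 786-M1A. It was 2.68-fold higher in 786-O than in HK2 (adjusted p = 4.97e-15) and fell by 0.52 on the log2 scale from 786-O to 786-M1A (adjusted p = 1.49e-07). DDX60, a helicase of the same response, was at 24.6 ± 0.418, 41.2 ± 1.75 and 46.1 ± 2.79 CPM, and is 1 of the 4 genes that were higher in 786-M1A than in 786-O (log2 fold change 0.16, adjusted p = 0.00814). DHX58, which encodes LGP2, was at 3.97 ± 0.621, 5.67 ± 0.362 and 4.52 ± 0.494 CPM. It passed in 786-O against HK2 (0.52, adjusted p = 2.17e-04) and, downward, in 786-M1A against 786-O (-0.32, adjusted p = 0.0171), but the last call was lost without 786-O replicate 2 (adjusted p = 0.0732) or 786-M1A replicate 3 (0.0963), the others giving an adjusted p down to 0.0061.

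The 4 OAS genes were higher in both cancer lines than in HK2 and lower in 786-M1A than in 786-O. OAS1, OAS2 and OAS3 encode enzymes that respond to double-stranded RNA by making oligoadenylates, the activators of RNase L, and stand side by side on chr12:112905856-113011723. OAS2 was all but silent in HK2, with 0.0322, 0.0497 and 0.0649 CPM, and had 8.80, 10 and 9.69 CPM in 786-O and 5.04, 5.42 and 4.31 in 786-M1A. The 3 lines were fully apart. As the HK2 libraries held 6 reads in all, against 1177 in 786-O and 553 in 786-M1A, the ratio to HK2 was 186 (95% interval of the counts 85.0 to 507) and 96.5 (44 to 264). OAS2 was lower in 786-M1A than in 786-O by a log2 fold change of -0.95 ± 0.09 (adjusted p = 1.33e-08).

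OASL, a relative without the synthetase activity that enhances RNA sensing, had 1.10, 1.07 and 0.887 CPM in HK2, 13.7, 12.8 and 14.3 in 786-O, and 5.73, 4.56 and 4.76 in 786-M1A. The values were high in 786-O, between the others in 786-M1A and low in HK2, without overlap. Its log2 fold change was 3.75 ± 0.12 (adjusted p = 7.72e-18) in 786-O against HK2, 2.31 ± 0.14 (8.34e-13) in 786-M1A against HK2 and -1.44 ± 0.09 (7.04e-12) in 786-M1A against 786-O. OAS1 had smaller differences, with 6.07 ± 0.698, 12.2 ± 0.600 and 7.36 ± 0.460 CPM and log2 fold changes of 1.01, 0.28 and -0.72. The second of these was lost without HK2 replicate 3 (adjusted p = 0.0756, and between 0.00103 and 0.0756 over 13 alternatives). OAS3 was at 47.8 ± 3.69, 104 ± 6.29 and 81.9 ± 5.14 CPM, with log2 fold changes of 1.13, 0.78 and -0.35.

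The IFIT genes, which encode cytoplasmic proteins that bind foreign RNA and block its translation, lie together on chr10:89283694-89421605. All 4 were higher in 786-O than in HK2, and all 4 were lower in 786-M1A than in 786-O, so that IFIT2 came to lie below HK2. IFIT2 had 23.7, 27.0 and 24.3 CPM in HK2, 36.4, 38 and 41.9 in 786-O, and 19.1, 18.7 and 17.6 in 786-M1A. The lines did not overlap, with 786-O the highest and 786-M1A the lowest. Its log2 fold change was 0.63 ± 0.06 in 786-O (adjusted p = 2.17e-09) and -0.44 ± 0.06 in 786-M1A (adjusted p = 1.68e-06) against HK2, and -1.07 ± 0.06 between the cancer lines (adjusted p = 3.01e-12). IFIT1, which recognizes RNA caps that lack the host methyl mark, differed most from HK2 among the 4, with 11.3 ± 0.867, 69.9 ± 3.14 and 37.1 ± 2.04 CPM and log2 fold changes of 2.63, 1.72 and -0.91. IFIT3 had 43.3 ± 0.683, 91.6 ± 2.62 and 51.8 ± 3.11 CPM (1.08, 0.26 and -0.82), and IFIT5 had 26.7 ± 0.473, 39.4 ± 1.94 and 31.6 ± 1.20 CPM (0.56, 0.25 and -0.32).

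IFIT2 and IFIT3 share 65 and 94 exon bases with LIPA on the opposite strand, and the use of strand in counting is not given in the sources used here. LIPA, a lysosomal lipase gene, was at 199 ± 0.986 CPM in HK2 against 201 ± 6.82 in 786-O and 214 ± 2.38 in 786-M1A, with log2 fold changes of 0.02, 0.10 and 0.09. Its mean count was 737% of that of IFIT2 and 325% of that of IFIT3, and in 786-M1A against HK2 its direction was that of IFIT3 (0.26). The part of antisense reads in the IFIT2 and IFIT3 values was not tested.

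Unlike the OAS, IFIT and MX families, the membrane restriction factors were not all lower in 786-M1A than in 786-O. The same was so for the RNA sensors and for PARP9 and DTX3L. The IFITM proteins hinder the fusion of enveloped viruses with cell membranes, and BST2, or tetherin, holds budding virus at the cell surface. All 4 were higher in both cancer lines than in HK2, but from 786-O to 786-M1A 2 were higher, 1 was lower and 1 did not pass. IFITM2 had 4.19 ± 0.413, 44.3 ± 1.09 and 52.0 ± 2.29 CPM and was 10.7-fold higher in 786-O (adjusted p = 2.01e-21) and 12.5-fold higher in 786-M1A (4.86e-22) than in HK2. IFITM3 had 19.5 ± 0.373, 143 ± 3.05 and 146 ± 8.88 CPM, with 7.30-fold and 7.47-fold higher values than HK2, and did not pass between the cancer lines (log2 fold change 0.03 ± 0.04). IFITM1 had 8.80 ± 0.883, 13.1 ± 0.582 and 10.5 ± 0.635 CPM, with log2 fold changes of 0.56, 0.24 and -0.32, the second of which was lost without HK2 replicate 1 (adjusted p = 0.0532, with 0.00124 the lowest over the alternatives).

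IFITM1, IFITM2 and IFITM3 are closely similar neighbors within chr11:303655-329475, so that the division of reads among them is uncertain. BST2, on chr19:17402939-17405630, rose from 80.2 ± 3.65 CPM in HK2 to 262 ± 4.89 in 786-O and 286 ± 19.7 in 786-M1A, with log2 fold changes of 1.71 (adjusted p = 1.43e-18) and 1.84 (3.74e-19) against HK2. The step of 0.13 between the cancer lines (adjusted p = 0.0198) was lost without 786-O replicate 1 (0.0501), 786-O replicate 3 (0.0582) or 786-M1A replicate 1 (0.144), while the lowest value over the alternatives was 0.00268.

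The MX GTPases form assemblies that trap viral capsids or nucleoproteins. MX2, the family member known for blocking HIV, had 0.0644, 0.0497 and 0.0649 CPM in HK2, 5.96, 6.78 and 6.43 in 786-O, and 4.98, 5.06 and 5.53 in 786-M1A. It was near 0 in HK2 and present in every cancer library, with 7 reads in the HK2 libraries together against 791 in 786-O and 583 in 786-M1A, which are ratios of 107 (51.6 to 267) and 87.2 (42.0 to 218). MX2 was lower in 786-M1A than in 786-O by a log2 fold change of -0.30 ± 0.09 (adjusted p = 0.00701).

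MX1, which lies next to MX2 on chromosome 21 and restricts influenza virus, had 1.39, 2.21 and 2.29 CPM in HK2, 3.77, 3.29 and 3.10 in 786-O, and 1.80, 1.33 and 1.35 in 786-M1A. The 786-O libraries were above all others, and HK2 and 786-M1A overlapped. Its log2 fold change was 0.75 ± 0.15 in 786-O against HK2 (adjusted p = 1.11e-04) and -1.19 ± 0.16 in 786-M1A against 786-O (adjusted p = 2.66e-06). In 786-M1A against HK2 it was -0.44 ± 0.18 (adjusted p = 0.0314), a call that was lost with DESeq2 (0.054), limma-voom (0.0603) and the replicate block (0.0523), and without HK2 replicate 2 (0.115) or 3 (0.174) or 786-M1A replicate 2 (0.11) or 3 (0.104), so that it passed in 6 of 13 alternatives. Both MX genes were thus highest in 786-O, but MX2 was higher in 786-M1A than in HK2 and MX1 was not. MX1 shares 562 exon bases with TMPRSS2 on the other strand, whose mean of 2.0 counts per library is 2.18% of that of MX1.

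ISG15 is a ubiquitin-like protein that is attached to other proteins during the response. It had 12.5 ± 0.846 CPM in HK2 against 47.6 ± 3.58 in 786-O and 33.1 ± 4.33 in 786-M1A, and was 3.81-fold (adjusted p = 6.13e-11) and 2.64-fold (3.34e-09) higher than in HK2 and lower in 786-M1A than in 786-O by a log2 fold change of -0.53 (7.92e-05). USP18, the protease that removes ISG15 and also damps signaling at the IFNAR2 chain, had 1.70 ± 0.150, 6.74 ± 0.162 and 6.55 ± 0.858 CPM and was 3.98-fold and 3.87-fold higher than in HK2. It did not pass between the cancer lines, with a log2 fold change of -0.04 ± 0.09.

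HERC5, the main ligase that attaches ISG15, went against ISG15 itself. It had 37.4, 40.7 and 36.9 CPM in HK2, 16.8, 17.5 and 16.6 in 786-O, and 4.12, 3.39 and 3.81 in 786-M1A. Each line was lower than the one before with no overlap. The log2 fold change was -1.18 ± 0.06 in 786-O against HK2 (adjusted p = 2.03e-14), -3.35 ± 0.07 in 786-M1A against HK2 (1.19e-20) and -2.17 ± 0.08 in 786-M1A against 786-O (1.26e-15), the largest fall from HK2 among the 38 genes. Its neighbor HERC6 (chr4:88378739-88443097), a related ligase gene, had 13.2 ± 0.398, 16.5 ± 0.762 and 10.8 ± 0.285 CPM, and was higher in 786-O than in HK2 (0.31, adjusted p = 6.90e-05) but lower in 786-M1A than in HK2 (-0.29, adjusted p = 2.81e-04). The 3 promoter matches of HERC5 printed above thus belonged to a gene that was highest in HK2.

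PARP9 and DTX3L, whose proteins form a complex that joins ADP-ribosylation to ubiquitin ligation, showed small differences. PARP9 had 31.6 ± 0.711, 49.2 ± 1.99 and 48.6 ± 1.02 CPM and was higher in both cancer lines than in HK2, with log2 fold changes of 0.64 and 0.62. DTX3L had 74.9 ± 3.42, 83.3 ± 3.41 and 82.2 ± 1.14 CPM (0.15 and 0.13), and its second call was lost without HK2 replicate 2 (adjusted p = 0.0537, with 0.000614 the lowest over the alternatives). Neither passed between the cancer lines, where both had a log2 fold change of -0.02 ± 0.04. The genes lie head to head on chr3:122527924-122575203 and share 139 exon bases on opposite strands, so that some of their reads may not be told apart.

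SAMD9 and SAMD9L, neighbors on chr7:93099513-93148385 that restrict poxviruses and restrain cell growth, were higher in the cancer lines. SAMD9L had 3.35, 3.23 and 2.85 CPM in HK2, 39.3, 42.3 and 43.3 in 786-O, and 24.2, 24.9 and 27.2 in 786-M1A. The lines were apart, with 786-O the highest. SAMD9L was 13.3-fold (adjusted p = 4.30e-21) and 8.15-fold (3.75e-19) higher than in HK2 and lower in 786-M1A than in 786-O by a log2 fold change of -0.71 ± 0.06 (5.87e-10). SAMD9 had 15.7 ± 1.20, 66.5 ± 1.93 and 54.3 ± 2.40 CPM, with log2 fold changes of 2.08, 1.78 and -0.29.

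Among the remaining effectors, IFI27 had the largest fall from 786-O to 786-M1A. IFI27, on chr14:94104836-94116695, encodes a small mitochondrial protein and is widely used as a blood marker of interferon exposure. It had 0.290, 0.323 and 0.151 CPM in HK2, 20.8, 23.4 and 20.6 in 786-O, and 3.46, 2.71 and 2.67 in 786-M1A. The gene was low in HK2, high in 786-O and in between in 786-M1A, with no overlap. It was 86.2-fold higher in 786-O than in HK2 (adjusted p = 6.33e-20), 11.8-fold higher in 786-M1A than in HK2 (2.52e-12) and 7.33-fold lower in 786-M1A than in 786-O (3.69e-16).

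IFI6, a membrane protein that restricts flaviviruses, had 4.44, 5.04 and 5.19 CPM in HK2, 75.1, 77.7 and 70.3 in 786-O, and 38.4, 30.8 and 30.9 in 786-M1A. It had the same order as IFI27 and again no overlap. Its log2 fold change was 3.91 ± 0.09 (adjusted p = 1.15e-15), 2.76 ± 0.10 (2.01e-13) and -1.16 ± 0.07 (1.61e-09) in the 3 comparisons in the order used above.

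RSAD2, or viperin, an enzyme that makes a chain-terminating nucleotide, had 0.515, 0.373 and 0.368 CPM in HK2, 3.32, 3.64 and 3.52 in 786-O, and 0.858, 0.704 and 1.06 in 786-M1A. The 786-M1A libraries were above those of HK2 and far below those of 786-O. RSAD2 was 8.47-fold higher in 786-O than in HK2 (adjusted p = 3.99e-13), 2.13-fold higher in 786-M1A than in HK2 (2.89e-04) and 3.98-fold lower in 786-M1A than in 786-O (2.93e-10). It shares 351 exon bases with CMPK2 on the other strand, a nucleotide kinase gene that is also induced by interferon. CMPK2 had 3.68 ± 0.213 CPM in HK2 against 3.59 ± 0.160 in 786-O and 0.587 ± 0.0423 in 786-M1A, with log2 fold changes of -0.03, -2.63 and -2.61. Both genes were thus lower in 786-M1A than in 786-O, but RSAD2 was higher in 786-O than in HK2 where CMPK2 did not pass. The mean count of CMPK2 was 163% of that of RSAD2, and the use of strand in counting is not given. The part of antisense reads in the RSAD2 values was not tested.

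XAF1, a promoter of apoptosis that counters XIAP, was read once in the HK2 libraries. It had 0, 0.0248 and 0 CPM in HK2, 3.79, 4.46 and 3.69 in 786-O, and 3.15, 2.87 and 3.12 in 786-M1A. All 6 cancer libraries were far above those of HK2, and the 786-O libraries were above the 786-M1A libraries. With 1 read in HK2 against 492 in 786-O and 342 in 786-M1A, the ratios were 465 (83.1 to 18400) and 358 (63.8 to 14200), so the size of the fold is poorly known. XAF1 was lower in 786-M1A than in 786-O by a log2 fold change of -0.38 ± 0.12 (adjusted p = 0.008), a call lost without 786-O replicate 2 (0.0538) and kept in 11 of 12 alternatives (lowest 0.00702).

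EPSTI1, named for its induction in epithelial cells grown with stroma, had 0.161, 0.174 and 0.108 CPM in HK2, 2.21, 3.32 and 3.12 in 786-O, and 3.07, 3.29 and 2.75 in 786-M1A. The cancer lines overlapped with each other and were both apart from HK2. It was 19.4-fold (adjusted p = 1.54e-12) and 20.6-fold (9.37e-13) higher than in HK2. Between the cancer lines it did not pass, with a log2 fold change of 0.08 ± 0.14.

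IFI44 and IFI44L, neighbors on chr1:78619902-78664078 with related sequences, differed from HK2 in opposite directions. IFI44L had 37.1, 36.5 and 34.2 CPM in HK2, 11.0, 12.9 and 12.1 in 786-O, and 5.62, 5.11 and 6.14 in 786-M1A. Like HERC5, it was highest in HK2 and lowest in 786-M1A without overlap. The log2 fold change was -1.58 ± 0.06 (adjusted p = 1.05e-15) in 786-O against HK2, -2.67 ± 0.07 (7.90e-19) in 786-M1A against HK2 and -1.09 ± 0.08 (3.08e-10) between the cancer lines. IFI44 had 11.8 ± 0.505, 58.7 ± 2.86 and 30.3 ± 0.383 CPM, with log2 fold changes of 2.32, 1.36 and -0.96, so that both were lower in 786-M1A than in 786-O.

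IFI35, a partner of NMI, had 18.6 ± 1.24, 23.0 ± 1.96 and 12.3 ± 0.532 CPM, and was higher in 786-O (0.31, adjusted p = 1.66e-04) but lower in 786-M1A (-0.59, adjusted p = 1.34e-07) than in HK2. TRIM21, a cytosolic antibody receptor and ubiquitin ligase, had 11.4 ± 0.673, 19.2 ± 0.328 and 21.8 ± 0.622 CPM. It was higher in both cancer lines (0.76 and 0.94) and higher in 786-M1A than in 786-O (0.18, adjusted p = 0.00785).

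**Figure D5:**
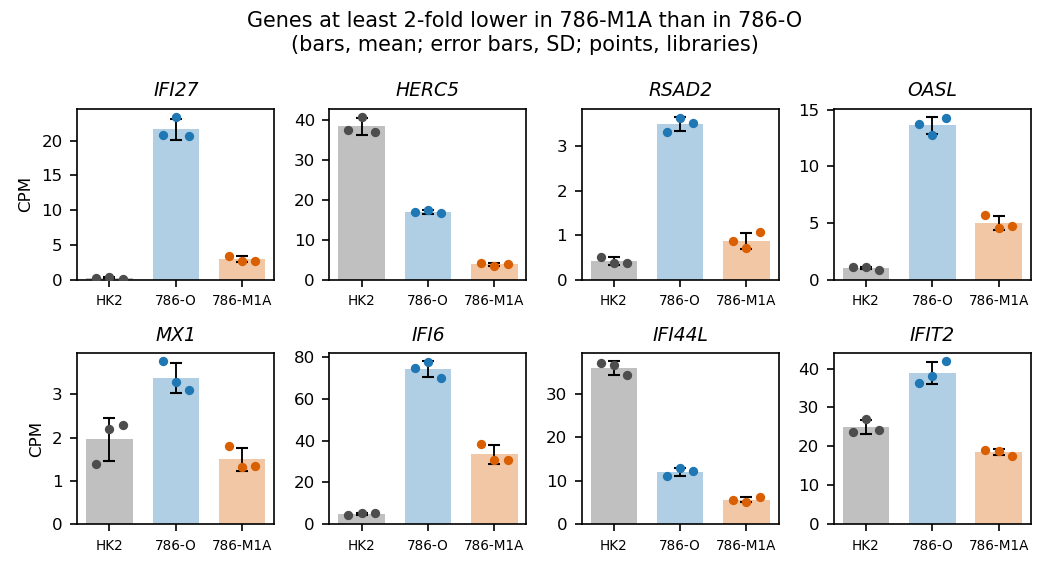
CPM in each library (points), line mean (bars, from 0) and SD (error bars) of the 8 genes that were lower in 786-M1A than in 786-O by at least 2-fold, each panel on its own axis. IFI27, RSAD2, OASL and IFI6 stay above HK2 in 786-M1A, IFIT2, HERC5 and IFI44L lie below it, and MX1 overlaps with it.

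Across the 3 comparisons, 18 of the 38 genes were higher than HK2 in both cancer lines and lower in 786-M1A than in 786-O. Among them were all 4 OAS genes, IFIT1, IFIT3 and IFIT5, and ISG15, IFI6, IFI27, MX2, XAF1 and RSAD2. Another 6 (IFITM3, IRF1, USP18, EPSTI1, PARP9 and DTX3L) were higher than HK2 in both lines and did not pass between them, and 4 (IFITM2, DDX60, BST2 and TRIM21) were higher in all 3 comparisons. IFI35, IFIT2, MX1 and HERC6 were higher in 786-O and lower in 786-M1A than in HK2. IFI44L and HERC5 were lower in all 3 comparisons. The comparisons share libraries, 786-O being in both the first and the last, and the share of all genes tested with each pattern was not counted. IFI27, MX2, OAS2, OASL, XAF1 and EPSTI1 passed the filter only through the cancer lines and had to be higher there than in HK2. RSAD2 passed only through 786-O and had to be higher there than in HK2 and in 786-M1A.

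Genes that lie side by side did not always share a pattern. Within 200 kb of each other, 20 of the 38 genes formed 8 clusters, and the 38 lay on 15 chromosomes. All 3 genes of the OAS cluster and all 4 of the IFIT cluster had the same direction in 786-O against HK2 and in 786-M1A against 786-O, as did SAMD9 and SAMD9L and both MX genes. In the clusters of IFI44L with IFI44 and of HERC5 with HERC6, neighbors went in opposite directions in 786-O against HK2.

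Genes with the ISRE core in the window were mostly, but not all, called higher in the cancer lines than in HK2, as were those without it. Of the 20 genes with a match, 18 were higher and 2 lower in 786-O than in HK2, with a median log2 fold change of 1.27. Of the 10 without one, 8 were higher and none lower, with a median of 0.49. In 786-M1A against HK2, 17 of 20 and 6 of 10 were higher and 3 and 2 lower, with medians of 0.92 and 0.28. In 786-M1A against 786-O the medians were -0.44 and -0.49, with 14 of 20 and 6 of 10 genes lower. Over all genes tested, 41.6% were higher and 42.6% lower in the first comparison and 41.6% and 43.3% in the second. In the third, 28.0% were lower. The counts by motif are descriptions of small groups and were not tested.

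Other interferon-stimulated genes, from a list of 38 further genes of which 31 were tested, showed smaller differences. In 786-O against HK2 23 were higher and 4 lower, with a median log2 fold change of 0.48, and in 786-M1A against HK2 19 were higher and 6 lower, with a median of 0.47. In 786-M1A against 786-O 9 were higher and 14 lower, with a median of -0.04 against -0.36 for the 38 genes described here. The shares of all genes tested, higher and lower, were 41.6% and 42.6%, 41.6% and 43.3%, and 27.9% and 28.0% in these 3 comparisons. TRIM22, a restriction factor, had 0.386 ± 0.0282 CPM in HK2 against 26.5 ± 1.37 in 786-O and 29.2 ± 1.58 in 786-M1A, and was 68.5-fold and 75.6-fold higher than in HK2. With 13 to 17 counts in the HK2 libraries, it passed the filter only through the cancer lines and had to be higher there. APOL1, which lyses trypanosomes, was 16.4-fold and 23.0-fold higher, and its relative APOL2 3.84-fold and 4.60-fold higher. GBP3 was 2.29-fold and 2.47-fold higher, while GBP2, also a guanylate-binding protein, was 3.18-fold and 4.03-fold lower. CMPK2 was the single one of the 31 tested genes of this list with at least a 2-fold difference between the cancer lines. It had 20 to 24 counts in the 786-M1A libraries, so it passed the filter only through the other lines and had to be lower in 786-M1A. Of those under the filter, GBP4 had 64, 55 and 74 counts in the 786-O libraries and 4, 2 and 5 in those of 786-M1A, and was not tested; it is named after its values were seen.

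Genes that sense nucleic acid upstream of interferon were mixed. Of 14 tested, 10 were higher and 3 lower in 786-O than in HK2, 8 higher and 4 lower in 786-M1A than in HK2, and 4 higher and 5 lower in 786-M1A than in 786-O. In the same order, 41.6%, 41.6% and 27.9% of all genes tested were higher, and 42.6%, 43.3% and 28.0% lower. TLR3, the endosomal receptor for double-stranded RNA, had 6.61 ± 0.204 CPM in HK2 against 14.4 ± 0.935 in 786-O and 3.48 ± 0.234 in 786-M1A. It was 2.18-fold higher in 786-O than in HK2 (adjusted p = 5.58e-12) and 4.12-fold lower in 786-M1A than in 786-O (9.79e-15), the largest difference of this list. IKBKE, STING1 and SAMHD1 were higher than HK2 by 2.52-fold, 2.42-fold and 2.88-fold in 786-O and by 3.04-fold, 2.31-fold and 2.13-fold in 786-M1A. CGAS, which makes the messenger that activates STING1, was 1.95-fold and 2.03-fold lower, and TICAM1, the adaptor of TLR3, was 1.72-fold and 2.29-fold higher.

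Of 6 negative regulators of the pathway that were tested, 2 were higher and 4 lower in 786-O than in HK2, 1 higher and 3 lower in 786-M1A than in HK2, and 1 higher and 3 lower in 786-M1A than in 786-O. Shares among all genes tested were again 41.6%, 41.6% and 27.9% higher, and 42.6%, 43.3% and 28.0% lower. SOCS3, an inhibitor of JAK kinases, had 31.2 ± 0.332, 16.9 ± 0.584 and 13.8 ± 1.06 CPM and was 1.84-fold and 2.26-fold lower than in HK2. PTPN6, a phosphatase, had 23.3 ± 0.531, 11.7 ± 1.04 and 9.34 ± 0.388 CPM and was 1.99-fold and 2.49-fold lower.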

How the data were processed

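RNA of HK2, 786-O and 786-M1A was sequenced by the authors from TruSeq Stranded mRNA libraries, 3 per line. The authors deposited whole-number counts per gene, not normalized, made with the Rsubread package on hg38 (featureCounts and GRCh38 in the submitters' processing notes); the annotation version and strand setting are not given in the sources used here. All 9 columns were matched to samples by their names. Symbols came from RefSeq (GRCh38.p14) and matched 27745 of 28395 identifiers, and gene positions from GENCODE release 44. Totals were 30212291 to 45362428 counts, so 3 counts equal 0.0661 to 0.0993 CPM. Only counting error enters the intervals and floors.

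Scaling was by TMM in edgeR 4.0.16 (R 4.3.3). The test covered genes with a mean of 50 or more counts, in a single robust quasi-likelihood fit of the 9 libraries with 1 coefficient for each line. Adjustment was by Benjamini-Hochberg across these 12695 genes, and an adjusted p under 0.05 was called. Standard errors came from the log2 fold change and the F statistic. The exact two-sided permutation test of 3 against 3 libraries cannot give a p below 0.1 and was not used for calls. Intervals of read ratios are exact and cover 95%. The scripts were tested on simulated data. Alternatives were DESeq2 1.42.0, limma-voom (limma 3.58.1), RLE scaling, no filter, at least 10 counts in every library, a fit of only the lines compared, a replicate block, and leaving out each library. Tables and figures used Python 3.11.15 with pandas 2.3.3 and matplotlib 3.10.9.

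The genes and lists were chosen with earlier results of these data known. Values in every library are given for genes with at least a 2-fold call in 786-M1A against 786-O, for the 8 with the largest log2 fold change from HK2 and for STAT2, IRF1, IRF7 and IRF9, and the others by line mean. Genes of the other lists are named where called with at least 2-fold difference, at most 6 per list, besides the receptors and JAK kinases. CMPK2, LIPA and TMPRSS2 are also given because they overlap genes described. Some genes of the marker and pathway lists are not reported here.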

Additional observations from a re-analysis of the deposited data

Results flagged for a closer look

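Against the common HK2 libraries, 4 of the 38 genes were called in opposite directions in the 2 cancer lines. The share of all genes tested with opposite calls was not counted. The difference between the effects is the fitted log2 fold change of 786-M1A against 786-O, since HK2 cancels, and its test is that of this comparison (edgeR, Benjamini-Hochberg over all genes). For IFI35 the log2 fold changes from HK2 were 0.31 in 786-O and -0.59 in 786-M1A, a difference of -0.90 (adjusted p = 4.44e-10). For IFIT2 they were 0.63 and -0.44, a difference of -1.07 (adjusted p = 3.01e-12). For MX1 they were 0.75 and -0.44, a difference of -1.19 (adjusted p = 2.66e-06), where the value of 786-M1A against HK2 is a call that several settings lose. For HERC6 they were 0.31 and -0.29, a difference of -0.60 (adjusted p = 4.12e-08). All 3 libraries of 786-M1A were below all 3 of 786-O in each of the 4 genes. As the genes were picked by their opposite calls, a difference between the cancer lines follows from the choice. Libraries of these 2 lines did not overlap for 61.6% of all genes tested.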

How the results depend on the processing

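The 12 counts of called genes stayed within 1.5 times their value under all settings tried. Leaving out a library in turn, genes called higher numbered 33 to 34 in 786-O and 27 to 28 in 786-M1A against HK2, and 23 to 25 were lower and 3 to 5 higher in 786-M1A than in 786-O. With at least 10 counts in every library, 33 genes were left, and those at least 2-fold higher than HK2 went from 21 to 15 in 786-O and from 17 to 12 in 786-M1A. The filter removed IFI27, MX2, OAS2, XAF1 and EPSTI1, and in 786-O OAS1 came under 2-fold (log2 fold change 0.99).

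Leaving out a library turned the sign of 7 log2 fold changes, none of them called, in 9 cases in all. In 786-M1A against HK2 this was IRF9, at -0.04 without 786-M1A replicate 1 (range over left-out libraries -0.04 to 0.11). In 786-M1A against 786-O the ranges were -0.01 to 0.07 for IFITM3 (turned without 786-M1A replicate 1), -0.03 to 0.16 for IRF7 (-0.03 without 786-O replicate 2 and -0.02 without 786-M1A replicate 1), -0.16 to 0.02 for USP18 (0.02 without 786-M1A replicate 1 and 0.01 without replicate 3), -0.08 to 0.19 for EPSTI1 (786-O replicate 1), -0.05 to 0.01 for PARP9 (786-O replicate 3) and -0.04 to 0.01 for DTX3L (786-O replicate 2). Calls lost are given beside each gene, besides DDX60 in 786-M1A against 786-O without 786-M1A replicate 2 (adjusted p = 0.0595). Calls gained were STAT2 in 786-O against HK2 without a filter (0.0467) or HK2 replicate 1 (0.0294), DHX58 in 786-M1A against HK2 without HK2 replicate 2 (0.0227), and IRF9 in 786-M1A against 786-O with RLE scaling (0.0499), no filter (0.0396), the block (0.0494) or without 786-M1A replicate 3 (0.0143).

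The replicate numbers of the labels showed no pairing of either cancer line with HK2. Between the cancer lines every correlation was positive but low, and whether the numbers pair these libraries is not settled. Deviations of libraries with the same number correlated at -0.0285, -0.0573 and -0.0508 between 786-O and HK2, at -0.0756, -0.167 and 0.0376 between 786-M1A and HK2, and at 0.215, 0.074 and 0.11 between the cancer lines. With the replicate number as a block, 21 genes were at least 2-fold higher in 786-O and 17 in 786-M1A than in HK2, and 8 at least 2-fold lower in 786-M1A than in 786-O, and the block lost the call of MX1 in 786-M1A against HK2 (log2 fold change -0.44, adjusted p = 0.0523). Depth limits XAF1, OAS2 and MX2 in HK2, where the 3 libraries together held 1, 6 and 7 reads.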
